A study of Mus musculus with 25 samples.

Results

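CCG-1423 was compared with vehicle in ASZ001 cells. ASZ001 is a cultured line from mouse basal cell carcinoma, and the labels call its cells resistant. The comparison was chosen as all RNA-seq libraries of ASZ001 cells treated with CCG-1423 against all those treated with vehicle, 6 of the 25 samples of the series, 3 per group. A further 3 libraries of the same line, treated with vismodegib, lie in the same table and were used as a second reference. The sources used here give no dose, treatment time or genotype of the line. The mouse genotype in the labels (Ptch+/-, K14 Cre-ER, p53 fl/fl) describes the animals in which the series' tumours grew. All 3 groups are of 1 cell line. Nothing in the labels says whether replicates came from separate cultures, so a p-value reflects no more than the spread among the libraries, which may be technical.

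CCG-1423 is a small molecule known as an inhibitor of transcription driven by RhoA, MRTF and SRF. SRF is a transcription factor that binds the CArG box. It works with either of 2 families of coactivators. MRTF proteins (Mkl1 and Mkl2 in these files) are held by monomeric actin, enter the nucleus when actin polymerizes and drive genes of the cytoskeleton. TCF proteins are activated by ERK and drive immediate early genes such as Fos and Egr1. Basal cell carcinomas arise from keratinocytes or hair follicle cells with an active Hedgehog pathway, in which the membrane protein Smo releases Gli transcription factors. Vismodegib inhibits Smo. The title of the series names a link between MRTF with SRF, the cytoskeleton and the Hedgehog pathway, and this comparison bears on that link in cultured cells.

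Values are normalized counts, which are reads per gene divided by 1 size factor per library. A gene passed when its Benjamini-Hochberg adjusted p in limma was under 0.05. Fold changes are on the log2(normalized count + 1) scale, are given ± SE and understate the change of low genes, and means are given ± SD over 3 libraries. Genes that passed and are given library by library did not overlap between vehicle and CCG-1423 unless stated otherwise. Their 3 CCG-1423 libraries lay all above or all below the 3 vehicle libraries. This held for 43.0% of all tested genes upward and 42.8% downward. The vehicle libraries held 32192090 to 44017757 reads at genes and the CCG-1423 libraries 32024887 to 41040633, so that 3 reads, the limit that a count of 0 allows, came to 2.45 to 3.40 normalized counts. This limit covers counting error only. Along the first principal component, 90.5% of the variance, the CCG-1423 libraries lay at 82.7 to 86.5, the vehicle libraries at -43.4 to -40.2 and the vismodegib libraries at -43.9 to -41.3. The ribosomal RNA precursor Rn45s took 5.81 to 6.70% of reads with vehicle, 6.62 to 10.4% with CCG-1423 and 1.39 to 1.58% with vismodegib. Each of the 12 keratinocyte markers was expressed in all 6 libraries. Their summed level was 1462500 to 1488600 with vehicle and 414830 to 423520 with CCG-1423. Marker lists of other cell types were lower. The melanocyte list summed to 2040 to 2187 with vehicle and 1520 to 1692 with CCG-1423, with Dct, Sox10 and Kit at 0 reads, and the endothelial list to 1074 to 1103 and 391 to 465, with Kdr, Tie1 and Cldn5 at 0. The fibroblast list summed to 441 to 452 and 343 to 369, the skeletal muscle list to 106 to 127 and 23.5 to 34.6, and the blood list to at most 1.13. The T and NK cell list summed to 4.26 to 5.66 with vehicle and 32.4 to 40.8 with CCG-1423, with Cd3d, Cd3g, Cd2, Cd8a and Nkg7 at 0 reads, and the macrophage list summed to 554 to 594 and 962 to 1115, with C1qa and C1qb at 0.

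Of 12775 genes tested, 85.3% passed, 42.8% higher with CCG-1423 and 42.6% lower. With so many genes past the threshold, passing alone says little about any one gene or list. Lists split near 42.8% higher and 42.6% lower did not differ in that from all tested genes. Counts are therefore also given for members that passed with a change of at least 2-fold, which applied to 11.7% of tested genes upward and 15.3% downward. Changes of at least 8-fold were found for 175 genes that rose and 168 that fell. At 32-fold or more there were 16 and 11. Against the same vehicle libraries, vismodegib passed for 5.5% of genes, 1.58% higher and 3.92% lower, and at least 2-fold for 0.00783% upward and 0.266% downward. The median log2 fold change with CCG-1423 over all tested genes was 0.0034 and the median absolute value was 0.57.

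**Figure D1:**
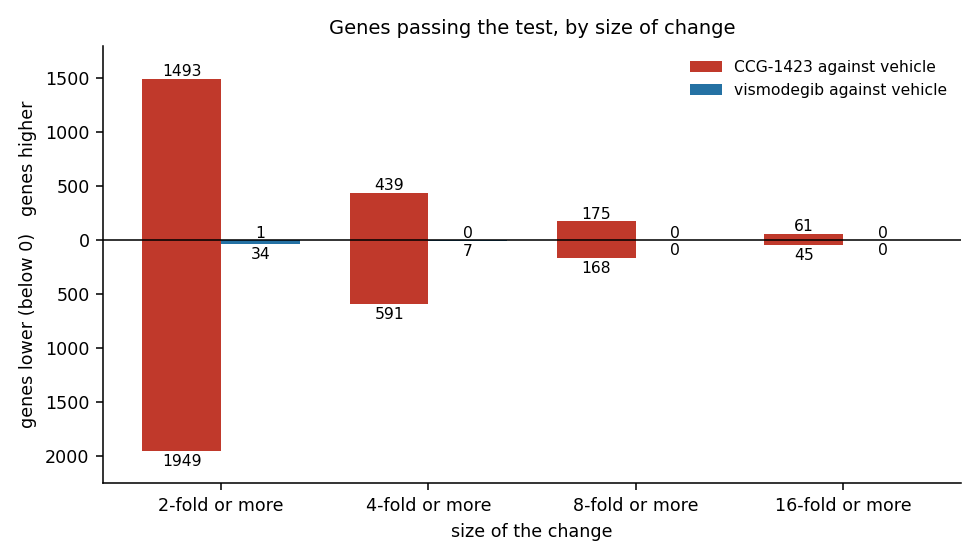
Number of genes that passed the test (adjusted p under 0.05 in limma), by size of change on the x axis, higher above 0 and lower below, for CCG-1423 (red) and vismodegib (blue) against the same 3 vehicle libraries. CCG-1423 had 1493 genes at least 2-fold higher and 1949 lower, and vismodegib had 1 and 34.

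Transcripts of SRF and its coactivators moved little. Srf rose from 2633, 2640 and 2525 normalized counts with vehicle to 2880, 2751 and 2794 with CCG-1423. The CCG-1423 libraries were all higher, by 0.11 ± 0.037 on the log2 scale (adjusted p = 0.0113). Under quantile normalization, and without vehicle replicate 3, Srf no longer passed. Mkl1 stood at 3910, 3838 and 3826 normalized counts with vehicle, against 4589, 4957 and 4770 with CCG-1423, again without overlap (log2 fold change 0.31 ± 0.035, adjusted p = 5.92e-07). Mkl2 was lower with CCG-1423, going from 3036 ± 69.0 to 2605 ± 84.2 (log2 fold change -0.22 ± 0.035, adjusted p = 2.60e-05). These are RNA levels, and neither the activity nor the location of the proteins was measured.

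Genes of the actin cytoskeleton known as MRTF targets fell as a group. Of 42 listed genes 34 were tested, and the others were under the filter of 10 normalized counts in 3 libraries. Of the 34 tested members, 29 fell and 4 rose, against 42.6% and 42.8% of all tested genes, and the median log2 fold change was -0.51. At least 2-fold falls were found for 9 and rises for 0. Actg1 had 127340, 124120 and 122760 normalized counts with vehicle and 31145, 38195 and 35233 with CCG-1423. Actg1 encodes cytoplasmic gamma-actin, and its 3 CCG-1423 libraries lay far below all vehicle libraries (log2 fold change -1.84 ± 0.056, adjusted p = 5.44e-14). Beta-actin, Actb, went from 96288 ± 2222 to 33466 ± 1674 (log2 fold change -1.53 ± 0.039, adjusted p = 8.61e-15). The tropomyosins stabilize actin filaments. Tpm1 fell from 18433, 19001 and 18728 normalized counts with vehicle to 3810, 4046 and 4174 with CCG-1423 (log2 fold change -2.22 ± 0.033, adjusted p = 2.34e-17), and Tpm2 changed by -2.10 ± 0.033 on the log2 scale (adjusted p = 4.77e-17). Filip1l stood at 6859, 6949 and 6921 normalized counts with vehicle, against 1628, 1736 and 1659 with CCG-1423 (log2 fold change -2.04 ± 0.034, adjusted p = 6.63e-17). Other 2-fold falls were those of alpha-actinin 4 (Actn4, -1.24 ± 0.029), the cofilin cofactor Wdr1 (-1.21 ± 0.029), the LIM protein Csrp2 (-1.14 ± 0.059) and the myosin light chain Myl9 (-3.38 ± 0.36), which was at 25.3, 41.5 and 41.9 with vehicle and 1.12, 2.596 and 4.64 with CCG-1423, at or under the limit of 3 reads in 2 libraries.

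Not every member fell. Zyx, a protein of focal adhesions and stress fibres, rose. Zyx had 11381, 10716 and 10930 normalized counts with vehicle and 16913, 17545 and 17770 with CCG-1423 (log2 fold change 0.66 ± 0.031, adjusted p = 8.97e-12). Flna, the actin crosslinker filamin A, had a log2 fold change of 0.24 ± 0.034, and Fhl2 and Itga5 also passed upward, at 0.17 ± 0.062 and 0.21 ± 0.032. Vcl, which links integrins to actin, fell less than 2-fold. Vcl fell from 3961, 4044 and 3920 normalized counts with vehicle to 2651, 2713 and 2545 with CCG-1423 (log2 fold change -0.59 ± 0.032, adjusted p = 5.31e-11). The smooth muscle markers Acta2 and Tagln, often used as MRTF reporters, were too low to test. Acta2 had 1.63, 3.19 and 4.53 normalized counts with vehicle and 0, 2.596 and 2.78 with CCG-1423, and Tagln had 0, 0 and 2.26 and 1.12, 3.46 and 0.927. Both genes overlapped between the groups. Targets that SRF shares with the YAP pathway split: Ctgf fell (log2 fold change -1.58 ± 0.096, adjusted p = 2.68e-10), while Cyr61 had 1106, 1047 and 1126 with vehicle and 1077, 1385 and 1284 with CCG-1423. These Cyr61 values overlapped, and the change of 0.18 ± 0.076 no longer passed without either vehicle replicate 1 or 2 or either CCG-1423 replicate 2 or 3.

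The CArG box was looked up in the RefSeq promoter windows of build GRCm38.p6, from 250 bases before to 50 after each listed start, on both strands, under its usual definition of 2 C, 6 A or T and 2 G. It was present in 1.63% of all windows and in 1.501% of the 9593 tested genes with a window. Of 30 tested MRTF targets with a window, 7 held it: Actg1, Cnn2, Vcl, Myl9, Fhl1, Fhl2 and Filip1l. The median log2 fold change was -0.59 in these 7 and -0.41 in the 23 others. Over all 144 tested genes with the letters the median was 0.02, and 13.2% rose and 15.3% fell at least 2-fold, against 11.2% and 14.5% of all tested genes with a window. A match describes the letters and does not show binding. Of 12 tested immediate early genes of the SRF and TCF list with a window, 1 held it (Zfp36). Sequence outside the windows was not searched, so genes without a match, such as Fos, may hold the box further from the start. The windows of the 3 holders with the largest changes and a mean of at least 50 are shown, because their cytoskeletal genes fell, with the CArG box in capitals.
Filip1l: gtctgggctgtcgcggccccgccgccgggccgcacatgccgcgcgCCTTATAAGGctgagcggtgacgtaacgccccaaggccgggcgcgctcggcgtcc
Actg1: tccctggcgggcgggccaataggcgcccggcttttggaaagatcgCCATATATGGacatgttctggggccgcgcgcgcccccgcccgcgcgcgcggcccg
Vcl: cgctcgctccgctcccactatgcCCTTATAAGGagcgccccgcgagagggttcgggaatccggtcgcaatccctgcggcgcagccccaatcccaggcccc
All 3 matches lie upstream of the listed start, at 62, 90 and 227 bases before it (first base of the match). The windows are chr16:57549135-57549234 on the plus strand for Filip1l, chr11:120348531-120348630 on the minus strand for Actg1 and chr14:20929148-20929247 on the plus strand for Vcl, and each ends before the gene's listed start.

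Immediate early genes listed for SRF with TCF mostly rose, opposite to the MRTF targets. Neither SRF nor TCF activity was measured. Of 16 tested immediate early genes of the SRF and TCF list, 12 rose and 4 fell, 9 and 2 of them at least 2-fold, with a median of 1.24. Fos stood at 41.7, 75.6 and 47.5 normalized counts with vehicle, against 148, 125 and 132 with CCG-1423 (log2 fold change 1.32 ± 0.19, adjusted p = 9.93e-06). Its relative Fosb rose by 2.11 ± 0.15 on the log2 scale (adjusted p = 1.55e-09). Dusp1, a phosphatase that switches off MAP kinases, had 416, 423 and 443 normalized counts with vehicle and 2062, 2686 and 2655 with CCG-1423 (log2 fold change 2.52 ± 0.083, adjusted p = 1.59e-13). Nr4a3, an orphan nuclear receptor, had 40.0, 28.7 and 31.7 normalized counts with vehicle and 226, 192 and 192 with CCG-1423 (log2 fold change 2.58 ± 0.17, adjusted p = 8.99e-10). The members that fell at least 2-fold were Btg2, an antiproliferative gene that p53 also drives (log2 fold change -1.24 ± 0.05, adjusted p = 1.66e-12), and Egr3, which is low (20.6 ± 0.548 to 4.21 ± 1.501, log2 fold change -2.10 ± 0.34, adjusted p = 3.17e-05). The AP-1 list, which shares members such as Fosb with this list, had 10 of 13 higher, 8 of them at least 2-fold, and a median of 1.32. Maff, a small Maf protein, rose most. Maff rose from 67.0, 68.1 and 47.5 normalized counts with vehicle to 970.0, 1257 and 1181 with CCG-1423 (log2 fold change 4.21 ± 0.14, adjusted p = 1.82e-13). Fosl1 had 24.5, 23.4 and 27.2 normalized counts with vehicle and 143, 196 and 219.8 with CCG-1423 (log2 fold change 2.83 ± 0.20, adjusted p = 1.39e-09). Jun and Jund fell instead, at -0.95 ± 0.057 and -0.81 ± 0.03.

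Genes that ERK signalling induces as feedback rose. Of 17 tested, 15 rose and 2 fell, and 14 rose at least 2-fold, with a median of 1.96. Etv4 and Etv5 are ETS transcription factors downstream of FGF and EGF receptors. Etv5 stood at 57.2, 40.4 and 50.9 normalized counts with vehicle, against 2556, 2292 and 2420 with CCG-1423 (log2 fold change 5.597 ± 0.16, adjusted p = 2.13e-14). Etv4 had 76.8, 85.1 and 64.5 normalized counts with vehicle and 2032, 1841 and 2108 with CCG-1423 (log2 fold change 4.71 ± 0.11, adjusted p = 3.23e-15). No CCG-1423 library came near the vehicle range. Dusp4 and Dusp6 encode phosphatases that dephosphorylate ERK family kinases in the nucleus and cytoplasm. Dusp4 rose from 29.4, 24.5 and 22.6 normalized counts with vehicle to 769.9, 897 and 858 with CCG-1423 (log2 fold change 4.996 ± 0.14, adjusted p = 1.71e-14). Dusp6 stood at 387, 341 and 295 normalized counts with vehicle, against 1694, 1994 and 2027 with CCG-1423 (log2 fold change 2.48 ± 0.088, adjusted p = 3.41e-13). The Sprouty proteins damp receptor tyrosine kinase signals. Spry4 had 1.63, 1.06 and 0 normalized counts with vehicle and 102, 94.3 and 102 with CCG-1423. Every vehicle library was under the limit of 3 reads there, so the size of the rise depends on the pseudocount. Spry1 went from 57.2 ± 4.21 to 465 ± 43.6 (2.999 ± 0.13) and Spry2 from 190.2 ± 9.86 to 739 ± 56.0 (1.95 ± 0.082). The cyclin Ccnd1, which is also a Hedgehog target, rose by 1.20 ± 0.06 on the log2 scale (adjusted p = 2.32e-11). The 2 members that fell, both at least 2-fold, were the receptor Epha4 and Spred3. Epha4 had a log2 fold change of -1.92 ± 0.035 (adjusted p = 2.09e-16). Spred3 went from 66.7 ± 16.2 to 24.5 ± 3.25 (log2 fold change -1.39 ± 0.19, adjusted p = 5.57e-06).

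Most ligands of the EGF receptor family rose as well. Of 14 tested members of the family, 12 rose and 1 fell, 7 rises being at least 2-fold, and the median was 1.18. Ereg, epiregulin, rose from 19.6, 10.6 and 19.2 normalized counts with vehicle to 306, 475 and 476 with CCG-1423 (log2 fold change 4.60 ± 0.24, adjusted p = 4.59e-11). Nrg1 stood at 142, 151 and 147 normalized counts with vehicle, against 704, 936 and 853 with CCG-1423 (log2 fold change 2.48 ± 0.097, adjusted p = 1.16e-12). Epgn, epigen, rose by 2.13 ± 0.11 on the log2 scale (adjusted p = 4.48e-11). Egf itself was low and rose from 7.32 ± 3.41 to 71.0 ± 6.51 (log2 fold change 3.21 ± 0.33, adjusted p = 2.03e-07). Of the receptors, Egfr rose (4596 ± 74.4 to 8995 ± 1184, 0.96 ± 0.066) and Erbb2 fell (5793 ± 89.8 to 2974 ± 16.4, -0.96 ± 0.028). Among FGF and VEGF genes, 10 of 18 rose and 7 fell, against 42.8% and 42.6% of all tested genes. Fgf9 rose (log2 fold change 3.05 ± 0.32, adjusted p = 2.44e-07), while the FGF receptor Fgfr2 (-1.90 ± 0.034) and the VEGF and semaphorin coreceptor Nrp1 (-2.88 ± 0.042) fell.

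**Figure D2:**
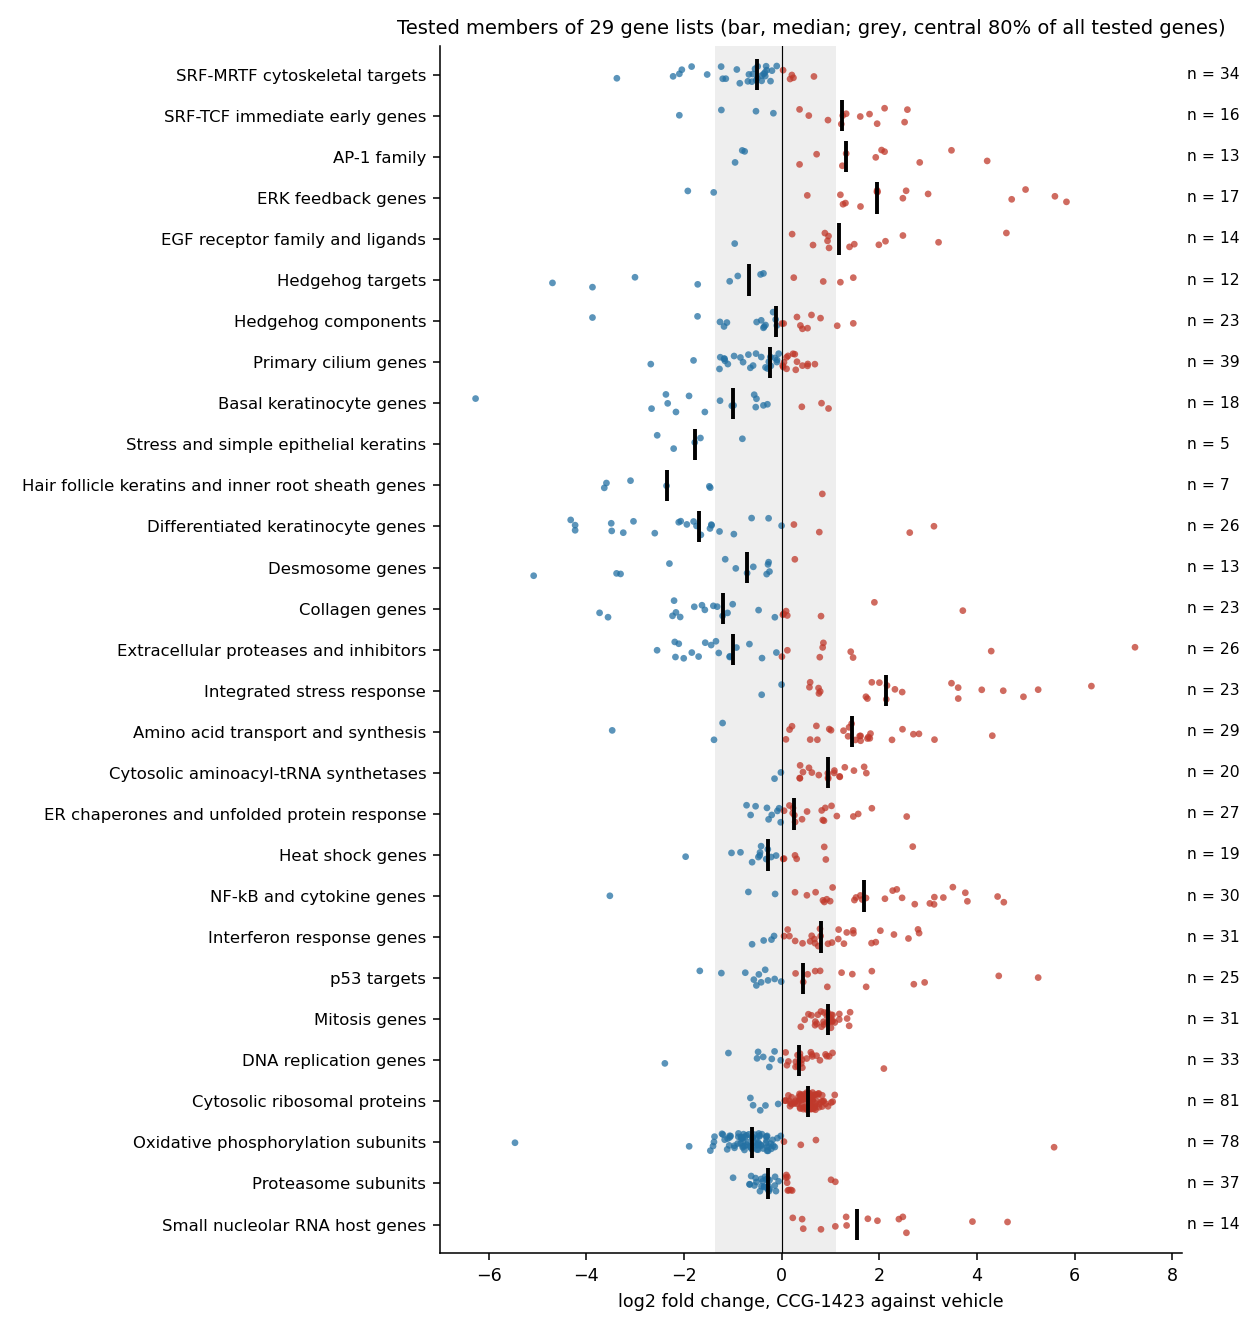
Log2 fold change of CCG-1423 against vehicle (x axis) for the tested members of 29 gene lists (rows), 1 point per gene, red above 0 and blue below, with the median as a black bar. The grey band holds the central 80% of all tested genes, from -1.34 to 1.10. Medians of the stress, ERK and cytokine lists lie to the right of it and those of the stress keratin, hair follicle and differentiation lists to the left.

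Hedgehog pathway genes did not move in 1 direction. Of 18 listed targets 12 were tested. Of these 12, 4 rose and 8 fell, against 42.8% and 42.6% of all tested genes. At least 2-fold were 2 rises and 5 falls, against 11.7% and 15.3%, and the median was -0.67. Gli1 had 1216, 1304 and 1100 normalized counts with vehicle and 409, 372 and 319 with CCG-1423. Gli1 is the transcriptional readout most used for the pathway, and its libraries did not overlap between these groups (log2 fold change -1.72 ± 0.092, adjusted p = 5.88e-11). With vismodegib it stood at 229, 272 and 240.1, below the CCG-1423 libraries (0.56 ± 0.092 for CCG-1423 against vismodegib, adjusted p = 3.48e-05). Ptch1, the Hedgehog receptor and a direct Gli target, rose. Ptch1 rose from 323, 305 and 332 normalized counts with vehicle to 494, 655 and 596 with CCG-1423, and it had 289.6, 278 and 268 with vismodegib (log2 fold change 0.85 ± 0.089, adjusted p = 2.29e-07 against vehicle). Gas1 is a Hedgehog coreceptor that Hedgehog signalling represses in other tissues. Because the target list holds such a gene, its counts and median do not measure the output of the pathway. Gas1 stood at 29005, 27760 and 28399 normalized counts with vehicle, against 2142, 1859 and 1814 with CCG-1423 (log2 fold change -3.88 ± 0.049, adjusted p = 5.48e-18). Sostdc1, an antagonist of Wnt and BMP signals in hair follicles, had 3402, 3434 and 3410 normalized counts with vehicle and 135, 129.8 and 128 with CCG-1423 (log2 fold change -4.69 ± 0.044, adjusted p = 2.63e-19). Foxl1, a forkhead factor, had 209.9, 196 and 226 normalized counts with vehicle and 23.5, 27.7 and 25.04 with CCG-1423 (log2 fold change -3.00 ± 0.12, adjusted p = 1.01e-12). With vismodegib against vehicle, Gas1, Sostdc1 and Foxl1 changed by only -0.07 ± 0.049, -0.20 ± 0.044 and -0.14 ± 0.12, while Gli1 changed by -2.28 ± 0.092. Hhip, another Gli target, was too low to test, at 0, 0 and 0 with vehicle and 0, 0 and 0 with CCG-1423.

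Components of the pathway, a list that shares Gas1 and Boc with the targets, were split too. Of 23 tested, 8 were higher and 11 lower, against 42.8% and 42.6% of all tested genes. At least 2-fold were 2 rises and 5 falls, and the median was -0.12. Smo fell from 8538 ± 189.5 to 6388 ± 158 (log2 fold change -0.42 ± 0.03, adjusted p = 1.84e-09). Gli3, the Gli protein that acts mainly as a repressor, rose from 2871, 3042 and 3141 normalized counts with vehicle to 6694, 6867 and 6368 with CCG-1423 (log2 fold change 1.14 ± 0.039, adjusted p = 2.40e-13). Boc, a coreceptor like Gas1, rose from 558 ± 28.5 to 1546 ± 115 (log2 fold change 1.47 ± 0.059, adjusted p = 1.71e-12). Gli2 had 939, 981 and 959 with vehicle and 764, 926 and 866 with CCG-1423, and its change of -0.18 ± 0.061 did not pass without CCG-1423 replicate 1 or vehicle replicate 2. The primary cilium is the organelle in which Smo acts. Of 39 tested cilium genes, 22 fell and 9 rose, 8 falls and 0 rises being at least 2-fold, with a median of -0.23. Rpgrip1l, a protein of the ciliary transition zone, had 1543, 1618 and 1623 normalized counts with vehicle and 237, 261 and 246 with CCG-1423 (log2 fold change -2.68 ± 0.06, adjusted p = 2.11e-15). Ift80, Ift52 and Ift88, parts of the transport complex that builds cilia, fell by 1.81 ± 0.085, 1.26 ± 0.042 and 1.18 ± 0.093 on the log2 scale. In the polarity list around atypical PKC, the kinase gene Prkci was lower (-0.26 ± 0.04), as was Mtss1 (-0.73 ± 0.035), while Pard3, Pard6a and Pard6b rose by 1.01 ± 0.04, 1.27 ± 0.066 and 1.22 ± 0.058.

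**Figure D3:**
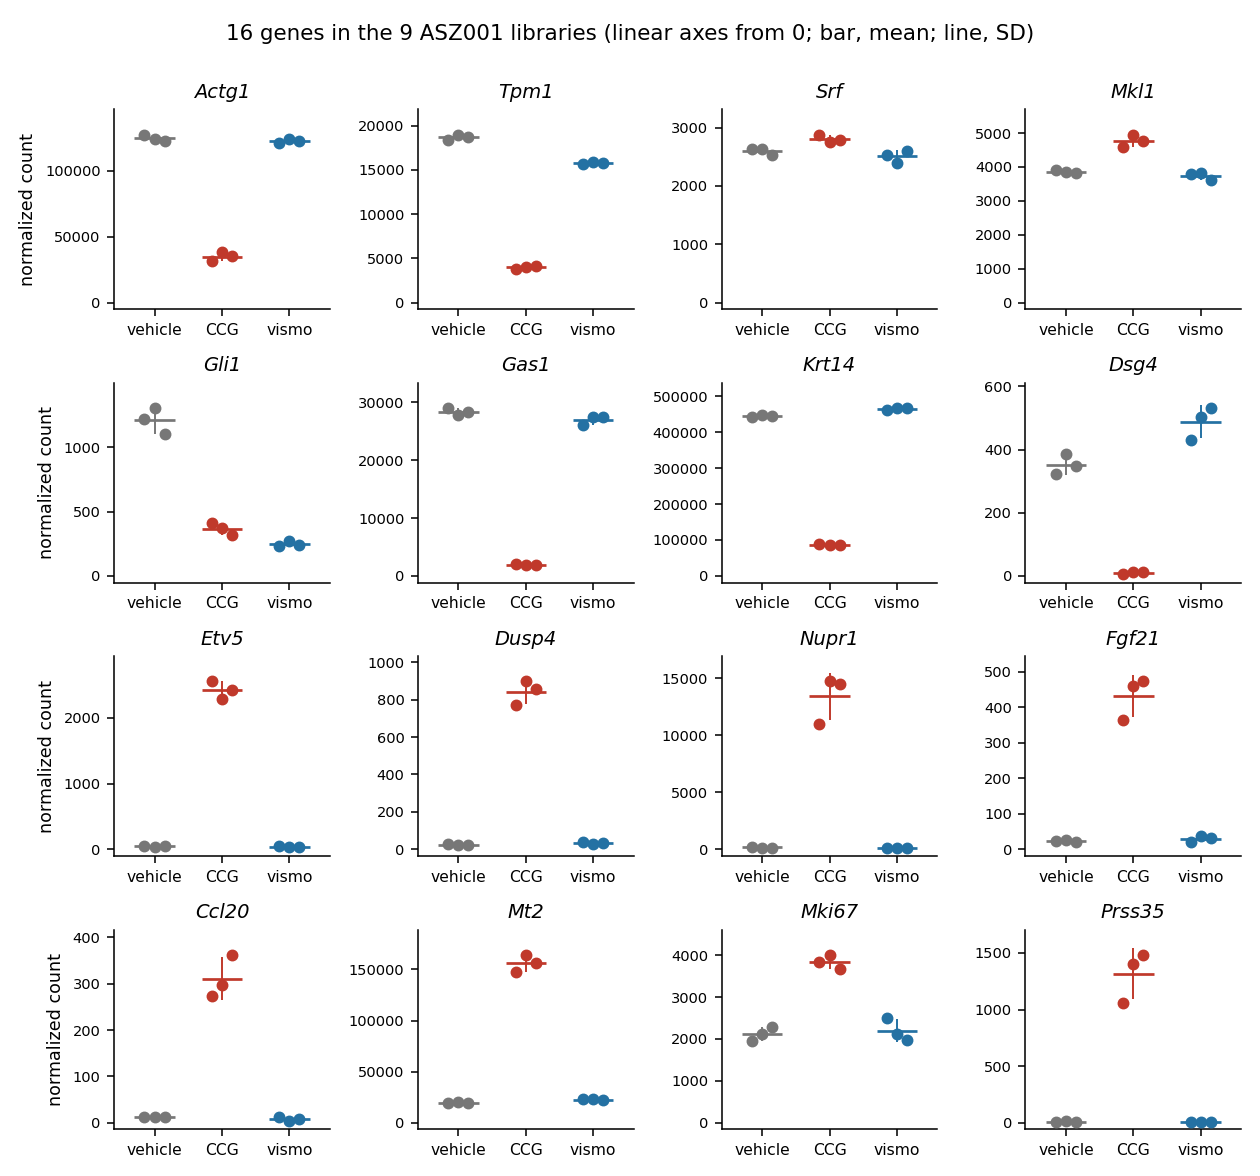
Normalized counts (y axes, linear, from 0) of 16 genes in the 9 libraries, grouped as vehicle, CCG-1423 and vismodegib, with 1 point per library, the mean as a bar and the SD as a line. Actg1, Tpm1, Gas1, Krt14 and Dsg4 were lowest in the CCG-1423 libraries, Gli1 was low with both compounds, and Srf, Mkl1 and Mki67 changed by less than 2-fold.

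The keratin network of basal keratinocytes was lowered. Of 18 tested basal genes, 15 fell and 3 rose, 9 falls and 0 rises being at least 2-fold, with a median of -1.003. Krt5 and Krt14 form the keratin pair of basal keratinocytes. Krt5 stood at 609920, 630360 and 619070 normalized counts with vehicle, against 96655, 100230 and 96352 with CCG-1423 (log2 fold change -2.66 ± 0.049, adjusted p = 2.43e-16). Krt14 had 441880, 448820 and 443770 normalized counts with vehicle and 88182, 85216 and 84659 with CCG-1423 (log2 fold change -2.37 ± 0.045, adjusted p = 3.69e-16). Together they took 2.92 to 2.97% of reads with vehicle and 0.516 to 0.522% with CCG-1423. Krt15, a keratin of hair follicle stem cells, had 2324, 2441 and 2708 normalized counts with vehicle and 27.9, 34.6 and 31.5 with CCG-1423 (log2 fold change -6.27 ± 0.076, adjusted p = 3.89e-18). Dst (bullous pemphigoid antigen 1), Col17a1 and Itga6, which are parts of hemidesmosomes, fell, at -2.33 ± 0.059, -1.57 ± 0.046 and -1.26 ± 0.04. Itga3, which pairs with integrin beta 1, rose (0.82 ± 0.029). Trp63, the transcription factor of the epidermal lineage, went from 13771 ± 275 to 6781 ± 33.7 (-1.02 ± 0.028). In bulk RNA, fewer cells of a type and less RNA per cell cannot be told apart.

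Of 11 listed stress and simple epithelial keratins 5 were tested, and all 5 fell, 4 of them at least 2-fold. Krt6a fell from 93946, 97770 and 98945 normalized counts with vehicle to 17642, 15744 and 16310 with CCG-1423 (log2 fold change -2.55 ± 0.042, adjusted p = 7.26e-17). Krt17 changed by -1.78 ± 0.064 and Krt16 by -1.66 ± 0.054. Of 22 listed hair follicle keratins and inner root sheath genes 7 were tested. Of the 7, 6 fell, all of them at least 2-fold, and 1 rose. Tchh, the gene of trichohyalin in the inner root sheath, stood at 46094, 50586 and 52777 normalized counts with vehicle, against 4501, 3730 and 3835 with CCG-1423 (log2 fold change -3.63 ± 0.059, adjusted p = 6.31e-17). Krt75, the companion layer keratin, had 391, 394 and 423 normalized counts with vehicle and 26.8, 40.7 and 31.5 with CCG-1423 (log2 fold change -3.59 ± 0.13, adjusted p = 5.76e-13), and the hair transcription factor Hoxc13 had a log2 fold change of -2.36 ± 0.037. Gata3, an inner root sheath regulator, was the member that rose (0.83 ± 0.06).

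Differentiation genes fell more than basal ones by median, at -1.70, although most were low. Of 37 listed genes 26 were tested. Of these, 20 fell and 3 rose, 18 and 2 at least 2-fold. With a filter at 50 normalized counts, which leaves fewer genes to test, 11 were at least 2-fold lower. Asprv1, a protease that processes filaggrin, had 289, 298 and 337 normalized counts with vehicle and 14.5, 18.2 and 13.9 with CCG-1423 (log2 fold change -4.23 ± 0.13, adjusted p = 5.03e-14). Sprr2h, a cornified envelope precursor, had 161, 183 and 222 normalized counts with vehicle and 5.59, 13.8 and 9.27 with CCG-1423 (log2 fold change -4.23 ± 0.23, adjusted p = 5.82e-11). Grhl3 and Abca12 went the other way. Grhl3, a grainyhead factor needed for the skin barrier, rose from 79.2, 90.5 and 105 normalized counts with vehicle to 590.0, 1005 and 859.5 with CCG-1423 (log2 fold change 3.12 ± 0.16, adjusted p = 3.31e-11). Abca12, a lipid transporter of lamellar granules, went from 1071 ± 34.0 to 6606 ± 182 (log2 fold change 2.62 ± 0.039, adjusted p = 2.43e-17). Of 13 tested desmosome genes, 12 fell and 1 rose, with a median of -0.71, and the 5 falls of at least 2-fold included desmogleins and desmocollins of the upper or hair layers. Dsg4 stood at 322, 385 and 349 normalized counts with vehicle, against 5.59, 12.1 and 12.1 with CCG-1423 (log2 fold change -5.08 ± 0.21, adjusted p = 1.88e-12). Dsg1a and Dsc1 changed by -3.30 ± 0.072 and -3.38 ± 0.16. The plakophilin Pkp2 was the one that rose (0.27 ± 0.087), a call lost without CCG-1423 replicate 3. Among adherens and tight junction genes, 9 of 22 rose and 12 fell, against 42.8% and 42.6% of all tested genes. Ctnnb1 (beta-catenin) fell from 34773 ± 326 to 11833 ± 460.2 (log2 fold change -1.56 ± 0.032, adjusted p = 9.45e-16), and Tjp3 and Cldn12 rose (2.97 ± 0.39 and 1.66 ± 0.037).

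Matrix genes fell more often than they rose. Of 23 tested collagen genes and collagen modifying enzymes, 16 fell and 5 rose, 14 falls being at least 2-fold, with a median of -1.21. Col6a1 had 1219, 1290 and 1287 normalized counts with vehicle and 331, 267 and 251 with CCG-1423 (log2 fold change -2.17 ± 0.081, adjusted p = 6.78e-13). Col16a1 had 856, 795 and 804 normalized counts with vehicle and 198, 196 and 185 with CCG-1423 (log2 fold change -2.08 ± 0.06, adjusted p = 3.44e-14). Col3a1 had 0 reads in every CCG-1423 library against 5.72, 17.0 and 12.4 normalized counts with vehicle, at least 3.50-fold lower. Loxl4, an enzyme that crosslinks collagen, rose. Loxl4 rose from 2167, 2263 and 2206 normalized counts with vehicle to 26016, 30334 and 30797 with CCG-1423 (log2 fold change 3.71 ± 0.059, adjusted p = 4.77e-17). Proteases and their inhibitors showed 17 falls and 7 rises among 26, 13 and 4 at least 2-fold. Plaur, the receptor of urokinase, stood at 20.4, 8.51 and 7.92 normalized counts with vehicle, against 235, 225 and 256 with CCG-1423 (log2 fold change 4.29 ± 0.32, adjusted p = 3.44e-09). Timp3, an inhibitor of metalloproteinases, rose from 27284 ± 477 to 72825 ± 4699 (log2 fold change 1.41 ± 0.043, adjusted p = 5.44e-14), while the inhibitor Serpine2 and the protease Tmprss4 fell, by 2.19 ± 0.066 and 2.55 ± 0.14. Among integrins and matrix ligands, Spp1, osteopontin, rose (5.47 ± 0.15), whereas Itga1 (-1.91 ± 0.18), Itga2 (-1.46 ± 0.05) and the matrix protein Tnc (-1.11 ± 0.034) fell.

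**Figure D4:**
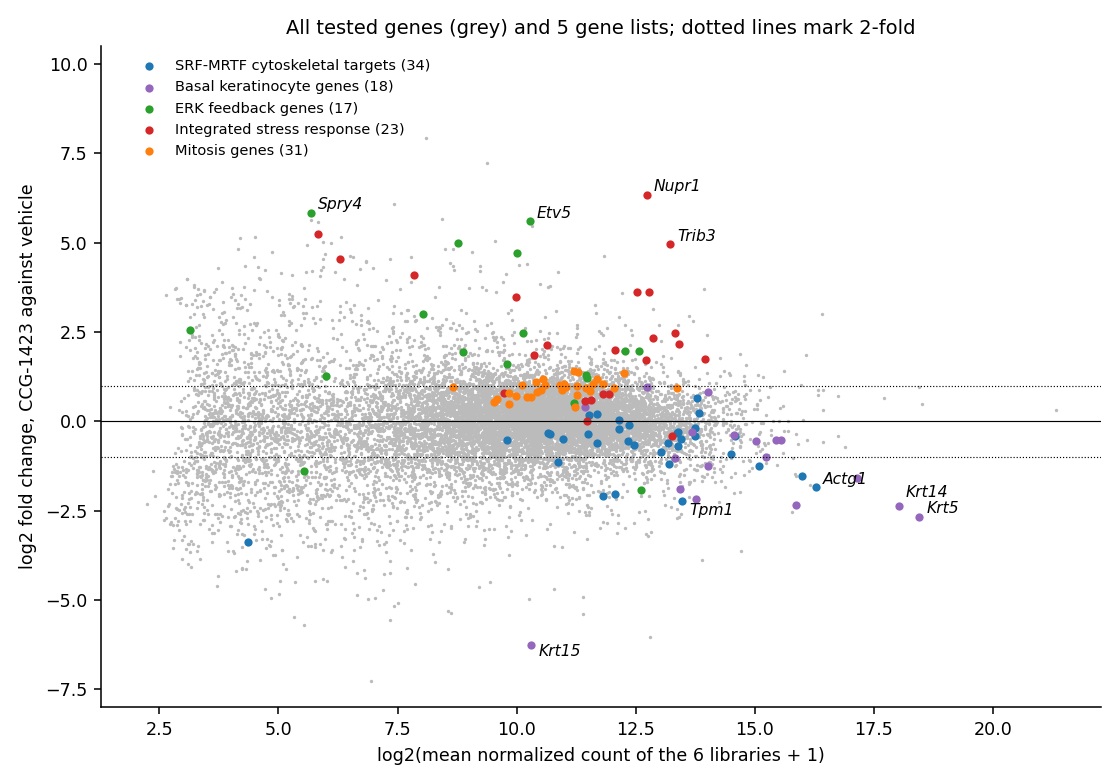
Log2 fold change of CCG-1423 against vehicle (y axis) by log2(mean normalized count of the 6 libraries + 1) (x axis) for 12775 tested genes in grey, with 5 gene lists in colour and dotted lines at 2-fold. Krt5 and Krt14 lie far to the right and below 0, stress response genes such as Nupr1 and Trib3 lie above 4, and the 31 mitosis genes all lie above 0.

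The integrated stress response is the program in which phosphorylated eIF2 alpha raises translation of Atf4, which then drives genes of amino acid supply and, through Ddit3 (CHOP), of cell death. Of 23 tested genes, 21 rose and 1 fell, and 16 rose at least 2-fold, with a median of 2.14. Atf4 had 3952, 3993 and 3992 normalized counts with vehicle and 16887, 18247 and 18195 with CCG-1423 (log2 fold change 2.16 ± 0.034, adjusted p = 4.69e-17). Ddit3 rose from 932, 899 and 857 normalized counts with vehicle to 10965, 10796 and 11200 with CCG-1423 (log2 fold change 3.62 ± 0.041, adjusted p = 1.88e-18). Trib3, a CHOP target that feeds back on the pathway, had 694, 584 and 529.7 normalized counts with vehicle and 18206, 18790 and 18741 with CCG-1423 (log2 fold change 4.95 ± 0.071, adjusted p = 1.95e-17). Nupr1, a small stress-induced chromatin protein, stood at 172, 154 and 162 normalized counts with vehicle, against 11025, 14715 and 14495 with CCG-1423 (log2 fold change 6.34 ± 0.092, adjusted p = 1.99e-17). The hormone Fgf21 went from 24.5, 26.6 and 21.5 to 363, 460.3 and 473 (log2 fold change 4.098 ± 0.19, adjusted p = 1.23e-11). Gdf15, a stress-induced cytokine, was at or under the limit of 3 reads in every vehicle library. Gdf15 had 1.63, 1.06 and 3.40 normalized counts with vehicle and 92.7, 121 and 115 with CCG-1423 (log2 fold change 5.25 ± 0.44, adjusted p = 1.53e-08). Vldlr, a lipoprotein receptor, was the member that fell (-0.41 ± 0.03).

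Atf4 and C/EBP proteins bind together at the sequence TGATGNAA, the C/EBP-ATF element. These letters, on either strand, were in 3.97% of all promoter windows and in 2.69% of the 9593 tested genes with one. Of 21 tested stress response genes with a window, 7 held them (Atf3, Trib3, Chac1, Asns, Nupr1, Vldlr and Fgf21). The median log2 fold change was 3.48 in these and 1.92 in the other 14. In amino acid transport and synthesis the order was the reverse, at 0.98 in 6 holders and 1.55 in 16 others, and in the tRNA synthetases the medians were 1.08 in 5 and 0.44 in 7. Over all 258 tested genes with the element the median was -0.05. At least 2-fold rises made up 20.5% and falls 17.8% of them, against 11.2% and 14.5% of all tested genes with a window. The element of Trib3 lies after its listed start. Of the holders with a match before the start, the 3 with the largest changes are shown with the match in capitals, which read TGATGNAA on the opposite strand.
Nupr1: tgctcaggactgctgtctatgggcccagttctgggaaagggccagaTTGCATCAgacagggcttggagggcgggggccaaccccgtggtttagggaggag
Fgf21: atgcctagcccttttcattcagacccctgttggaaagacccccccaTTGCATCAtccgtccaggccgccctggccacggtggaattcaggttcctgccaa
Atf3: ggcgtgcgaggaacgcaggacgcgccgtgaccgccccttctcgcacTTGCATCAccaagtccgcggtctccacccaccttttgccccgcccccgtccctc
In all 3 the 8 matched bases were TTGCATCA, and they began 110, 139 and 110 bases before the listed start. The windows are chr7:126625527-126625626 on the minus strand for Nupr1, chr7:45615576-45615675 on the minus strand for Fgf21 and chr1:191183390-191183489 on the minus strand for Atf3.

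Genes of amino acid supply rose along with the stress genes. Of 29 tested transporters and enzymes of amino acid synthesis, 26 rose and 3 fell, 19 and 3 at least 2-fold, and the median was 1.43. Slc6a9, the glycine transporter GLYT1, rose from 1583, 1496 and 1468 normalized counts with vehicle to 13269, 13467 and 13092 with CCG-1423 (log2 fold change 3.13 ± 0.035, adjusted p = 1.88e-18). Slc7a5, an importer of large neutral amino acids, stood at 3760, 3082 and 3134 normalized counts with vehicle, against 23872, 23359 and 22575 with CCG-1423 (log2 fold change 2.81 ± 0.059, adjusted p = 9.94e-16). Mthfd2, a mitochondrial folate enzyme, had 3047, 2825 and 2726 normalized counts with vehicle and 18134, 18665 and 18966 with CCG-1423 (log2 fold change 2.70 ± 0.04, adjusted p = 2.43e-17). The falls were in Cbs, the first enzyme from homocysteine to cysteine (1162 ± 90.0 to 104 ± 13.7, log2 fold change -3.47 ± 0.087, adjusted p = 6.36e-15), in the cystine importer Slc7a11 (11929 ± 251 to 4571 ± 338, log2 fold change -1.39 ± 0.042, adjusted p = 5.43e-14), which is itself known as an Atf4 target, and in Shmt1 (-1.21 ± 0.039). Of 20 cytosolic aminoacyl-tRNA synthetases, 18 rose and 1 fell, 8 rises being at least 2-fold, with a median of 0.95. Vars had 7557, 7011 and 6973 normalized counts with vehicle and 24361, 24151 and 23148 with CCG-1423 (log2 fold change 1.73 ± 0.035, adjusted p = 6.99e-16). Cars, Yars and Aars rose by 1.69 ± 0.041, 1.48 ± 0.041 and 1.29 ± 0.027.

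Chaperones of the endoplasmic reticulum changed less than the stress response genes. Of 27 tested, 17 rose and 7 fell, 6 rises and 0 falls being at least 2-fold, with a median of 0.26. Herpud1, a protein of ER-associated degradation that is also an Atf4 target, rose from 1661, 1532 and 1498 normalized counts with vehicle to 8817, 9512 and 9367 with CCG-1423 (log2 fold change 2.56 ± 0.046, adjusted p = 1.86e-16). Hspa5, the chaperone BiP, went from 14483 ± 82.1 to 42950 ± 1263 (log2 fold change 1.57 ± 0.03, adjusted p = 3.11e-16), while Dnajc3 (-0.64 ± 0.043) and Sec61b (-0.72 ± 0.04) fell. Cytosolic heat shock genes fell by median (-0.28), with 12 of 19 lower and 5 higher. Hspb1 had 42260, 41878 and 42240 normalized counts with vehicle and 10052, 11463 and 10850 with CCG-1423 (log2 fold change -1.97 ± 0.041, adjusted p = 9.94e-16). Cryab, another small heat shock protein, rose. Cryab stood at 2156, 2185 and 2235 normalized counts with vehicle, against 12104, 15719 and 14730 with CCG-1423 (log2 fold change 2.68 ± 0.067, adjusted p = 6.26e-15). Metallothioneins bind zinc and copper. Mt2 had 19430, 20024 and 19111 normalized counts with vehicle and 147020, 164210 and 156690 with CCG-1423 (log2 fold change 2.997 ± 0.039, adjusted p = 7.87e-18). Mt1 went from 29771 ± 553 to 108110 ± 5398 (log2 fold change 1.86 ± 0.039, adjusted p = 1.00e-15). Sat1, which breaks down polyamines, had 738, 692 and 688 normalized counts with vehicle and 5515, 5864 and 5924 with CCG-1423 (log2 fold change 3.03 ± 0.047, adjusted p = 3.56e-17), and the polyamine synthesis enzyme Odc1 rose too (1.37 ± 0.043). The NRF2 list was split, with 14 of 28 higher and 12 lower, against 42.8% and 42.6% of all tested genes. Osgin1 (2.84 ± 0.15) and Sqstm1 (1.88 ± 0.039) were its largest rises among members with a mean of at least 50, and Gsta3 (-2.06 ± 0.047) its largest fall.

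NF-kB is a transcription factor of inflammation whose targets include cytokines and its own inhibitors. Of 38 listed genes 30 were tested. Of these, 26 rose and 2 fell, 20 and 1 at least 2-fold, and the median was 1.69. Ccl20, a chemokine of keratinocytes, rose from 11.4, 12.8 and 12.4 normalized counts with vehicle to 273, 297 and 363 with CCG-1423 (log2 fold change 4.55 ± 0.33, adjusted p = 2.65e-09). Icam1, the leukocyte adhesion molecule, stood at 33.5, 29.8 and 37.3 normalized counts with vehicle, against 616, 756 and 860.5 with CCG-1423 (log2 fold change 4.42 ± 0.15, adjusted p = 2.51e-13). Tnf had 8.98, 15.96 and 12.4 normalized counts with vehicle and 159, 173 and 223 with CCG-1423 (log2 fold change 3.80 ± 0.26, adjusted p = 1.30e-09). Csf1, the growth factor of macrophages, had 74.3, 79.8 and 98.5 normalized counts with vehicle and 1032, 1212 and 1204 with CCG-1423 (log2 fold change 3.76 ± 0.12, adjusted p = 9.59e-14). Feedback inhibitors of the pathway rose as well, Tnfaip3 from 192 ± 4.77 to 1700 ± 338 (3.12 ± 0.12) and Nfkbia from 1271 ± 52.9 to 5562 ± 912 (2.12 ± 0.088). Cxcl14, a chemokine of resting epithelium, fell. Cxcl14 fell from 3609, 3666 and 3636 normalized counts with vehicle to 318, 302 and 329 with CCG-1423 (log2 fold change -3.52 ± 0.051, adjusted p = 1.99e-17). Birc3, the inhibitor of apoptosis that NF-kB drives, rose by 2.27 ± 0.13 on the log2 scale (adjusted p = 1.31e-10), and Ptgs2, the inducible cyclooxygenase, by 1.52 ± 0.052 on the log2 scale (adjusted p = 2.05e-13). The prostaglandin receptors Ptger3 and Ptger4 fell by 2.76 ± 0.06 and 1.94 ± 0.081.

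The kB site was searched by its usual consensus of 10 bases on both strands. It was in 4.51% of all promoter windows and in 6.21% of tested genes with a window. Of 23 tested genes of the cytokine list with a window, 11 held it, and all 11 rose: Nfkb2, Rel, Nfkbia, Nfkbie, Tnfaip3, Bcl3, Csf1, Cxcl1, Cxcl3, Cxcl10 and Ccl20. Their median log2 fold change was 3.04, against 1.90 in the 12 others. Over all 596 tested genes with the site the median was 0.07. At least 2-fold rises made up 14.3% and falls 15.4% of them, against 11.2% and 14.5% of all tested genes with a window. The 3 holders with the largest changes among those with a mean of at least 50 are shown, with the site in capitals, which leaves out the low Cxcl3.
Ccl20: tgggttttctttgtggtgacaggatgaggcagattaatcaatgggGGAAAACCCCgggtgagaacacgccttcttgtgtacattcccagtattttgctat
Csf1: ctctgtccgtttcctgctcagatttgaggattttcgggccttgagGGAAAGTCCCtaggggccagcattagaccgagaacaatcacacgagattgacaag
Cxcl1: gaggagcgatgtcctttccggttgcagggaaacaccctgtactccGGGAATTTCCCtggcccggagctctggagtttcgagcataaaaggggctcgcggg
The Cxcl1 window holds matches on both strands that overlap, so that 11 bases are in capitals. The windows are chr1:83116641-83116740 on the plus strand for Ccl20, chr3:107760569-107760668 on the minus strand for Csf1 and chr5:90891129-90891228 on the plus strand for Cxcl1.

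Interferon response genes rose less uniformly. Of 31 tested, 19 rose, 4 fell and 8 did not pass, 14 rises and 0 falls being at least 2-fold, with a median of 0.80. Rtp4 stood at 52.3, 47.9 and 44.1 normalized counts with vehicle, against 485, 389 and 215 with CCG-1423 (log2 fold change 2.82 ± 0.24, adjusted p = 1.63e-08). Irf1, a transcription factor that interferons induce, had 539.9, 507 and 484 normalized counts with vehicle and 2151, 2733 and 2703 with CCG-1423 (log2 fold change 2.30 ± 0.076, adjusted p = 1.50e-13). Ifi44 and Mx2 rose by 2.79 ± 0.35 and 2.597 ± 0.23. Ifih1, a sensor of double-stranded RNA, had a log2 fold change of -0.37 ± 0.15. The fall of Ifih1 did not pass with any one of vehicle replicates 1 and 2 or CCG-1423 replicates 2 and 3 left out. Ifnl2, a lambda interferon, had 0 reads in every vehicle library and 14.5, 11.2 and 11.1 normalized counts with CCG-1423, at least 3.62-fold higher. Of 13 tested genes of MHC class I presentation, 9 rose and 1 fell, led by the peptide transporter Tap1 (496 ± 36.9 to 1830 ± 345, log2 fold change 1.87 ± 0.098, adjusted p = 4.12e-11).

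Genes of mitosis rose together. All 31 tested passed upward, 13 of them at least 2-fold, and the median was 0.94. Without CCG-1423 replicate 2 the count at least 2-fold higher was 8. Mki67, the proliferation marker, rose from 1952, 2122 and 2275 normalized counts with vehicle to 3832, 4006 and 3657 with CCG-1423 (log2 fold change 0.86 ± 0.071, adjusted p = 1.34e-08). Aurka, a kinase of the spindle poles, stood at 1438, 1292 and 1400 normalized counts with vehicle, against 3261, 3866 and 3662 with CCG-1423 (log2 fold change 1.38 ± 0.057, adjusted p = 2.42e-12). Ect2, which activates RhoA at the cleavage furrow, and Anln, which links RhoA to actin and myosin there, rose by 1.402 ± 0.064 and 1.34 ± 0.055. Replication genes moved less, with 22 of 33 higher, 7 lower and a median of 0.36. Cdt1, the factor that licenses origins, had 703, 633 and 613 normalized counts with vehicle and 2486, 2975 and 2880 with CCG-1423 (log2 fold change 2.09 ± 0.068, adjusted p = 1.29e-13). Rrm2, a subunit of ribonucleotide reductase, had the largest fall of that list. Rrm2 fell from 4988, 4830 and 4780 normalized counts with vehicle to 935, 905 and 937 with CCG-1423 (log2 fold change -2.39 ± 0.035, adjusted p = 2.34e-17). Of 68 listed histone cluster genes 29 were tested. Of these 29, 15 rose and 14 did not pass, and the linker histone Hist1h1e had 77.6, 85.1 and 78.1 normalized counts with vehicle and 481, 445 and 351 with CCG-1423 (log2 fold change 2.38 ± 0.18, adjusted p = 4.97e-09). How the library preparation treated RNA without poly(A), such as most histone transcripts, was not stated in the sources at hand.

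Targets of p53 went both ways, with 14 of 25 higher and 9 lower, against 42.8% and 42.6% of all tested genes. At least 2-fold were 8 rises and 2 falls, against 11.7% and 15.3%, and the median was 0.44. Fas, a death receptor, stood at 8.17, 6.39 and 13.6 normalized counts with vehicle, against 221, 221 and 207 with CCG-1423 (log2 fold change 4.45 ± 0.24, adjusted p = 7.28e-11). Plk3 and Eda2r rose by 2.71 ± 0.13 and 2.93 ± 0.19, and Trp53inp1 and Btg2 fell by 1.68 ± 0.045 and 1.24 ± 0.05. Cdkn1a, the p53-driven inhibitor of cell cycle kinases, went from 3922 ± 53.3 to 3105 ± 109 (-0.34 ± 0.033). Among 27 apoptosis genes, 15 rose and 11 fell, 6 and 1 at least 2-fold, beside the same shares of all tested genes. The BH3-only genes Bbc3 (PUMA) and Bid rose (1.45 ± 0.095 and 1.35 ± 0.035), and Bnip3, which hypoxia induces, fell (-1.74 ± 0.043). Myc went from 4026 ± 27.0 to 8566 ± 353 (log2 fold change 1.09 ± 0.032, adjusted p = 3.56e-14) and the tumour suppressor Rb1 fell (-0.97 ± 0.042).

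Cytosolic ribosomal protein genes rose together by small amounts. Of 81 tested, 74 rose and 4 fell, 3 rises being at least 2-fold, with a median of 0.55. The 4 that fell were the paralogues Rpl7l1, Rps4l, Rps27l and Rpl39l, named after their values were seen. Ribosome biogenesis genes showed 32 rises and 5 falls among 40 and a median of 0.43. The elongation factor genes Eef1a1 and Eef2, named because they were among the 10 largest gains, went from 244070 ± 2878 to 474460 ± 49120 (0.95 ± 0.066) and from 168040 ± 2866 to 263150 ± 20155 (0.64 ± 0.054). Host genes of small nucleolar RNAs rose more. Of 14 tested, 13 rose and 0 fell, 10 at least 2-fold, with a median of 1.55. Snhg12 had 283, 299 and 272 normalized counts with vehicle and 6502, 7203 and 7462 with CCG-1423 (log2 fold change 4.63 ± 0.065, adjusted p = 1.79e-17). Snhg5 rose from 99.7, 105 and 109 normalized counts with vehicle to 1476, 1670 and 1608 with CCG-1423 (log2 fold change 3.91 ± 0.11, adjusted p = 2.25e-14). Of 78 subunits and paralogues of oxidative phosphorylation, in contrast, 73 fell and 3 rose, 15 falls being at least 2-fold, with a median of -0.61. The largest of these falls was Ndufa4l2, which hypoxia induces. Ndufa4l2 stood at 70.2, 68.1 and 91.7 normalized counts with vehicle, against 0, 4.33 and 0 with CCG-1423 (log2 fold change -5.46 ± 0.47, adjusted p = 2.21e-08). Mitochondrial ribosomal proteins had a median of -0.02, with 29 of 77 higher and 32 lower, against 42.8% and 42.6% of all tested genes.

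Glycolysis and cholesterol synthesis genes fell more often than they rose. Fatty acid synthesis genes were split, with 10 of 22 higher and 9 lower, against 42.8% and 42.6% of all tested genes. Of 23 glycolysis and hypoxia genes, 17 fell and 6 rose, 7 and 5 at least 2-fold, with a median of -0.61. Gapdh went from 151780 ± 1420 to 92651 ± 5201 (log2 fold change -0.71 ± 0.046, adjusted p = 5.59e-10), while Pfkfb3, which activates glycolysis through phosphofructokinase, rose. Pfkfb3 had 358, 363 and 353 normalized counts with vehicle and 2620, 2817 and 2725 with CCG-1423 (log2 fold change 2.92 ± 0.052, adjusted p = 1.63e-16). Vegfa, which both hypoxia and Atf4 induce, rose from 2487 ± 45.4 to 12439 ± 824 (log2 fold change 2.32 ± 0.045, adjusted p = 4.73e-16). Of 24 cholesterol synthesis genes, 19 fell and 3 rose, 3 falls being at least 2-fold, with a median of -0.42. Mvk, mevalonate kinase, fell from 2328, 2397 and 2339 normalized counts with vehicle to 627, 638 and 579 with CCG-1423 (log2 fold change -1.94 ± 0.041, adjusted p = 1.19e-15). Dhcr7, which makes cholesterol from its last precursor, was among the rises (0.53 ± 0.038). Proteasome subunits fell slightly, 27 of 37 lower and 8 higher with a median of -0.27. Of 39 genes of lysosomes and autophagy, 23 fell and 13 rose, against 42.6% and 42.8% of all tested genes. The cathepsins Ctsa and Ctsl fell by 1.70 ± 0.039 and 1.23 ± 0.031, and the transcription factor Tfe3 rose by 1.04 ± 0.041.

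Developmental signalling lists were split between directions, as were all tested genes, 42.8% higher and 42.6% lower. In the TGF-beta list, 14 of 23 fell and 9 rose. Tgfbi, a matrix protein that TGF-beta induces, stood at 33093, 31961 and 32023 normalized counts with vehicle, against 6889, 6777 and 6566 with CCG-1423 (log2 fold change -2.26 ± 0.032, adjusted p = 1.70e-17). The feedback inhibitor Pmepa1 fell by 1.94 ± 0.028 on the log2 scale. The coreceptor Tgfbr3 rose from 2.43 ± 2.15 to 43.6 ± 6.52 (3.998 ± 0.52, under 50 in both groups). Among BMP genes, 7 of 21 rose and 10 fell, 3 and 5 at least 2-fold. The ligands Bmp6, a low gene, and Bmp7 rose by 2.22 ± 0.31 and 1.21 ± 0.13, while the targets Id2 and Id3 fell by 1.84 ± 0.075 and 2.11 ± 0.064 and the ligand Bmp2 by 2.13 ± 0.057. Of the Wnt list, 13 of 30 rose and 14 fell. Axin2, a feedback target of beta-catenin, had 205, 211 and 223 normalized counts with vehicle and 936, 1160 and 1163 with CCG-1423 (log2 fold change 2.34 ± 0.084, adjusted p = 4.18e-13). Wnt7a rose from 87.4, 97.9 and 93.9 normalized counts with vehicle to 1073, 1256 and 1300 with CCG-1423 (log2 fold change 3.68 ± 0.09, adjusted p = 4.92e-15), and the ligand Wnt4 fell (18446 ± 306 to 2820 ± 29.4, log2 fold change -2.71 ± 0.027, adjusted p = 4.48e-19). Notch genes rose more often, 13 of 19 higher and 6 lower, with the target Hes1 going from 1946 ± 73.3 to 6442 ± 1302 (log2 fold change 1.71 ± 0.098, adjusted p = 1.41e-10) and the receptor Notch3 from 687 ± 31.6 to 2124 ± 519 (log2 fold change 1.60 ± 0.11, adjusted p = 1.44e-09), while the modifier Lfng fell (-1.89 ± 0.036). In the insulin-like growth axis, 9 of 13 rose and 4 fell, 3 and 1 at least 2-fold, with a median of 0.52. The binding proteins Igfbp4 and Igfbp7 and the receptor substrate Irs2 rose by 4.20 ± 0.35, 1.09 ± 0.045 and 1.23 ± 0.046. Igfbp5, another binding protein, had 12058, 12756 and 12873 normalized counts with vehicle and 1691, 1200 and 1258 with CCG-1423 (log2 fold change -3.20 ± 0.087, adjusted p = 1.75e-14).

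The largest rises among genes with a mean of at least 50 in the higher group began with transport and secreted proteins. Slc6a12, the betaine and GABA transporter that osmotic stress induces, stood at 4.08, 0 and 1.13 normalized counts with vehicle, against 426, 618 and 593 with CCG-1423 (log2 fold change 7.93 ± 0.47, adjusted p = 1.78e-10). Prss35, a secreted protein related to serine proteases, had 8.17, 11.7 and 4.53 normalized counts with vehicle and 1062, 1403 and 1483 with CCG-1423 (log2 fold change 7.24 ± 0.27, adjusted p = 6.18e-13). Car6, a secreted carbonic anhydrase, had 9.80, 12.8 and 14.7 normalized counts with vehicle and 774, 582 and 683 with CCG-1423 (log2 fold change 5.67 ± 0.19, adjusted p = 1.86e-13). Arg2, the mitochondrial arginase, rose from 4.08, 2.13 and 3.40 normalized counts with vehicle to 102, 153 and 143 with CCG-1423 (log2 fold change 4.997 ± 0.33, adjusted p = 6.61e-10). Aqp1, a water channel, stood at 1.63, 2.13 and 4.53 normalized counts with vehicle, against 101, 99.5 and 152 with CCG-1423 (log2 fold change 5.02 ± 0.51, adjusted p = 1.46e-07). Receptors and ligands of the TNF family were also among the 15, with Tnfsf15 going from 43.4 ± 5.18 to 1451 ± 160.1 (log2 fold change 5.03 ± 0.13, adjusted p = 6.26e-15) and Tnfrsf1b from 3.87 ± 2.63 to 154 ± 20.9 (log2 fold change 5.16 ± 0.39, adjusted p = 3.80e-09). Together with Nupr1, Spry4, Etv5, Spp1 and Gdf15 and with Btg4, Plekhs1 and Cox6a2, these made up the 15 largest rises. Spry4, Gdf15, Plekhs1 and Cox6a2 were at or under the limit of 3 reads in every vehicle library. Slc6a12, Aqp1, Arg2 and Tnfrsf1b were so in some but not all vehicle libraries. The size of the rise of these genes therefore depends on the pseudocount.

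Among the 15 largest falls, genes of hair follicle and membrane proteins stood beside matrix genes. Dio2, the enzyme that activates thyroid hormone, had 202, 282 and 250.1 normalized counts with vehicle and 1.12, 0 and 0.927 with CCG-1423 (log2 fold change -7.25 ± 0.24, adjusted p = 1.54e-13). Ucp2, a mitochondrial carrier, fell from 14392, 14175 and 13693 normalized counts with vehicle to 201, 218 and 218 with CCG-1423 (log2 fold change -6.05 ± 0.041, adjusted p = 9.56e-21). Fbn2, the microfibril protein fibrillin 2, stood at 4796, 5309 and 5684 normalized counts with vehicle, against 129, 135 and 109 with CCG-1423 (log2 fold change -5.39 ± 0.075, adjusted p = 1.70e-17). Fmod, fibromodulin, had 778, 726 and 802 normalized counts with vehicle and 18.997, 17.3 and 16.7 with CCG-1423 (log2 fold change -5.37 ± 0.093, adjusted p = 1.26e-16). Lgr6, a stem cell receptor of the upper hair follicle, had 203, 241 and 239.9 normalized counts with vehicle and 7.82, 6.92 and 4.64 with CCG-1423 (log2 fold change -4.96 ± 0.16, adjusted p = 1.33e-13). Prlr, the prolactin receptor, fell from 296, 301 and 349 normalized counts with vehicle to 5.59, 3.46 and 9.27 with CCG-1423 (log2 fold change -5.56 ± 0.21, adjusted p = 9.45e-13). Kcna4, Tmem44, Sema3d, Pi15, Myh1 and Pcdhb16 were the remaining ones beside Krt15, Ndufa4l2 and Dsg4, with log2 fold changes of -5.71 ± 0.30, -5.30 ± 0.16, -5.16 ± 0.11, -4.96 ± 0.09, -4.95 ± 0.33 and -4.94 ± 0.19. In the CCG-1423 libraries Dio2, Kcna4 and Myh1 were at or under the limit of 3 reads in every library, so the size of their fall depends on the pseudocount.

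**Figure D5:**
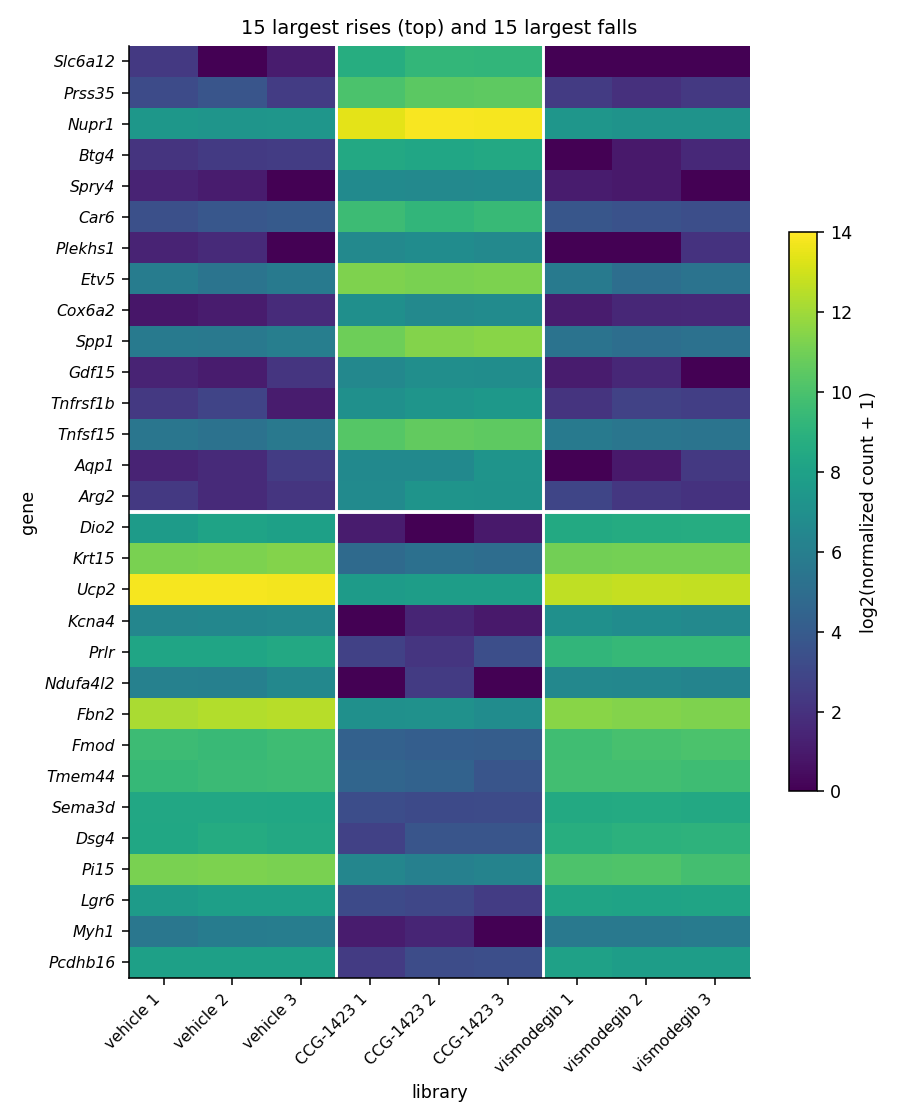
Log2(normalized count + 1) in each of the 9 libraries (columns) for the 15 largest rises (upper rows) and the 15 largest falls (lower rows) with CCG-1423 against vehicle. Colours of the vismodegib libraries follow those of vehicle for most genes, and the 3 CCG-1423 libraries stand apart from both in every row.

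A few genes had 0 reads in every library of either the vehicle or the CCG-1423 group. With 0 reads in all vehicle libraries, Gdap1l1 had 26.8, 37.2 and 38.9 normalized counts with CCG-1423, at least 10.1-fold higher. Cybb, the catalytic subunit of the phagocyte NADPH oxidase, had 14.5, 16.4 and 13.9, at least 4.41-fold higher. Cbfa2t3 and Olah, named by the same rule, had 16.8, 12.1 and 15.8 and 12.3, 13.0 and 11.1. In the other direction, the potassium channel Kcnc4 had 14.7, 26.6 and 31.7 with vehicle and 0 reads with CCG-1423, at least 7.26-fold lower. Gpm6a had 17.2, 14.9 and 15.8 and Cyp2w1 17.97, 9.58 and 13.6 with vehicle. Over the whole table, 5 genes had 0 reads in every vehicle library and at least 10 in each CCG-1423 library, and 3 genes the reverse.

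By the difference in mean normalized count, which follows transcript length as well as abundance, keratins led the losses. After Rn45s, whose gain of 632090 did not pass without CCG-1423 replicate 1 or without any one vehicle library, the largest gains were those of Eef1a1 (230400), Mt2 (136450) and Lars2 (130920). Lars2 overlapped between the groups, at 266890, 333160 and 332240 with vehicle and 552280, 447410 and 325370 with CCG-1423, and did not pass with robust variance (adjusted p = 0.0592). Its log2 fold change was 0.48 ± 0.14, and 0.30 without CCG-1423 replicate 1. Among the CCG-1423 libraries, both Lars2 and Rn45s were highest in replicate 1 and lowest in replicate 3. With vismodegib against vehicle, Lars2 changed by -2.12 ± 0.14 and Rn45s by -2.17 ± 0.14 on the log2 scale. Whether the Lars2 value follows the share of Rn45s in each library was not tested. Ftl1, the ferritin light chain, gained 48071. The largest losses were those of Krt5 (-522040), Krt14 (-358810), Col17a1 (-143530), Actg1 (-89883) and Krt17 (-80681). Slc6a6, the taurine transporter, was the tenth. Slc6a6 stood at 89619, 88095 and 87685 normalized counts with vehicle, against 31937, 30490 and 29604 with CCG-1423 (log2 fold change -1.53 ± 0.035, adjusted p = 2.41e-15).

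Against vismodegib in place of vehicle, with the same CCG-1423 libraries on 1 side, 84.8% of tested genes passed, 42.4% higher and 42.4% lower, at least 2-fold for 12.2% upward and 15.1% downward. These comparisons share the CCG-1423 libraries, so list values are given side by side. The MRTF targets had 9 members at least 2-fold lower against vehicle and 9 against vismodegib, with medians of -0.51 and -0.48. For the stress response genes the counts at least 2-fold higher were 16 and 16, with medians of 2.14 and 2.04. ERK feedback genes had 14 and 14, and cytokine genes 20 and 23. Of the Hedgehog targets, 2 were at least 2-fold higher against vehicle and 3 against vismodegib, and 5 and 3 were at least 2-fold lower. Their median was -0.67 and -0.27. Interferon genes had 14 and 11, and histone cluster genes 13 and 19. With vismodegib against vehicle, the medians of the 62 lists other than cell type markers lay between -0.45 (histone cluster genes) and 0.37 (interferon response genes).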

How the data were processed

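RNA-seq (paired-end, per the labels) of 9 ASZ001 libraries was used, 3 per group. The signal values are normalized read counts, in which the authors scaled each library's whole read counts with its own size factor. With each library's step recovered, 100% of values were whole reads within 0.01 read. The submitters' processing notes list TopHat, DESeq and mm9, without roles or versions. No source used here gives the counter, annotation, strandedness or read filters, so reads of near-identical copies and antisense partners could not be told apart. Of 24015 symbols, 24 had turned into dates and 22683 occur in the reference names.

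Genes with at least 10 normalized counts in at least 3 of the 9 libraries entered a limma fit (version 3.58.1, R 4.3.3) with a variance trend, in which all 9 libraries shared 1 spread and values were log2(normalized count + 1). P-values are 2-sided and adjusted over all 12775 genes, with a threshold of 0.05. The 62 gene lists and 8 marker lists, and the comparison itself, were chosen with earlier results of these data known. Of their symbols, Flg, Tigar, Noc2l, Epb4.1l4aos and Trac are not among the table's names. Genes were named by a rule: the 15 largest changes per direction (passing, mean of at least 50, no overlap), the 10 largest gains and losses in mean, up to 4 members at least 2-fold changed per list and 2 in the opposite direction, 24 fixed genes, and 5 per direction with 0 reads in 1 group. Other list members were named after their values were seen. A fold against 0 reads takes 3 reads, in that group's shallowest library, as the floor.

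Symbols were matched to RefSeq promoter windows (GRCm38.p6), and 9593 tested genes had one. Replicate libraries differed beyond sampling noise. Chi-square per df was 1.81 to 4.45 among vehicle, 2.21 to 3.05 among vismodegib and 8.08 to 38.9 among CCG-1423 libraries. All 9 libraries share 1 spread in the fit, so the SE may understate the spread among the CCG-1423 libraries. The fit was tested on simulated data with few changed genes and the same spread in every group. These data differ in both, so that test does not show how the fit performs on them. Alternatives were pseudocounts of 0.5 and 5, no filter and one at 50, the 6 libraries alone, TMM, equal-total and quantile scaling, robust variance, a replicate block, leaving out each vehicle and CCG-1423 library, edgeR 4.0.16 and DESeq2 1.42.0 on the recovered reads, and, added after seeing the data, equal totals without Rn45s. The tumour and exome samples were not analysed here. Some results are not reported here.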

Additional observations from a re-analysis of the deposited data

How the results depend on the processing

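The counts over the whole table stayed within 1.5 times of the reported ones under every alternative listed. Across them, 10007 to 11611 genes passed for CCG-1423 against vehicle, 5069 to 5888 higher and 4938 to 5723 lower, with 1182 to 1983 at least 2-fold higher and 1552 to 2327 lower. Under other scalings the median log2 fold change of all genes was at most 0.07. All these scalings are relative, so a change in the total RNA of the cells could not be seen by any of them. Small shifts of whole lists rest on this relative scale. Replicate numbers pair nothing in the labels, and deviations of same-numbered libraries correlated at -0.04 to 0.04; with the number as a replicate block 10848 genes passed, 1494 at least 2-fold higher and 1950 lower. No named gene changed direction, and 33 of 6322 values for named genes, in 10 genes that include Rn45s, Ifih1, Gli2, Klf10, Srf, Cyr61, Lars2, Psmb9 and Pkp2, no longer passed. Of 2356 counts of list members at least 2-fold changed, 87 moved by over 1.5 times, most of them counts of 1 or 2. Histone cluster genes at least 2-fold higher numbered 6 in place of 13 with a filter at 50. Fewer genes are tested at that filter. The other causes were not tested. Depth limits genes under about 3 normalized counts.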

Other observations

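Gene families outside the lists were picked after their values were seen and are described without a test of the family. Clustered protocadherins are cell adhesion proteins whose beta genes stand in a single array. All 16 tested Pcdhb genes were lower with CCG-1423, against 42.6% of all tested genes. Their log2 fold changes were -4.94 to -1.42, with a median of -3.30. Their summed level was 2797 to 2881 normalized counts with vehicle, 256 to 313 with CCG-1423 and 2585 to 2862 with vismodegib. Pcdhb22 had 749.8, 708 and 680.2 normalized counts with vehicle and 67.0, 28.6 and 33.4 with CCG-1423 (log2 fold change -4.12 ± 0.21, adjusted p = 2.79e-11). Of the 7 tested gamma protocadherins, 6 were lower and Pcdhgc3 higher (0.48 ± 0.035). These genes share sequence, so reads could be split between them.

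Of all tested genes, 42.8% passed upward and 42.6% downward, 11.7% and 15.3% at least 2-fold. Factors of nonsense-mediated decay, which degrades transcripts with early stop codons, were mostly higher. Of 10 tested, 8 passed upward, only 2 of them at least 2-fold, and Upf3b passed downward (-0.56 ± 0.095). Smg1, the kinase of the pathway, rose from 3558, 3716 and 3943 normalized counts with vehicle to 10601, 11464 and 10191 with CCG-1423 (log2 fold change 1.52 ± 0.052, adjusted p = 2.26e-13), and Smg9 changed by 1.30 ± 0.077 on the log2 scale (adjusted p = 1.87e-10). Upf1 had 7614, 7681 and 7890 with vehicle and 7856, 7754 and 7083 with CCG-1423. These Upf1 values overlapped and did not pass (adjusted p = 0.476). Of 20 tested nucleoporins 17 were higher, 4 of them at least 2-fold, with Nup62 at 1.39 ± 0.041. SR splicing factors were mostly lower, 8 of 10, and 4 of them at least 2-fold. Srsf1 went from 7670 ± 85.5 to 1260 ± 204 (log2 fold change -2.62 ± 0.078, adjusted p = 4.89e-14) and Srsf2 from 6809 ± 176 to 1221 ± 90.4 (log2 fold change -2.48 ± 0.044, adjusted p = 1.70e-16). All 6 tested beta tubulins and 4 of 5 alpha tubulins were lower, 3 and 2 of them at least 2-fold. Tuba1a stood at 10002, 12014 and 11894 normalized counts with vehicle, against 1882, 2021 and 1994 with CCG-1423 (log2 fold change -2.52 ± 0.054, adjusted p = 1.19e-15). Tubb3 went from 3989 ± 149 to 884 ± 36.2 (log2 fold change -2.17 ± 0.039, adjusted p = 1.78e-16), while the low Tuba8 was higher (2.13 ± 0.27).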
